A study of Mus musculus with 8 samples.

Results

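NK cells without CD3 were defined as cells of the mouse liver with at least 2 UMIs of the NK receptors Ncr1 (NKp46) and Klrb1c (NK1.1) together, no UMI of Cd3e, at most 1 UMI of Cd3d and Cd3g together, and none of the B cell gene Cd79a or of the macrophage receptor gene Csf1r. A UMI (unique molecular identifier) tags 1 captured mRNA molecule. The members were thus chosen by raw counts of these genes, which are given only as a description. They were 801 of 80474 kept cells (over 500 genes detected, mitochondrial share below 25%). The series holds 8 single-cell libraries from the livers of wild-type C57BL/6 mice, made with the 10x Genomics 3′ kit (V3), 1 library a mouse. The 2 control mice had normal diet and drinking water. The 3 HFD+F+CCl4 mice had high-fat diet, fructose solution and weekly intraperitoneal carbon tetrachloride (CCl4), and the 3 WD+F+CCl4 mice had western diet with the same additions, both for 16 weeks. Together these 6 mice are called NASH mice here. Diet and CCl4 were given together, so their parts cannot be told apart, and dead cells were removed before loading.

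NK cells are innate lymphocytes that kill stressed, infected or transformed cells with perforin and granzymes, and they secrete interferon gamma and chemokines. They carry no T cell receptor. Activating receptors such as NKp46 and NKG2D signal through adaptors like DAP12 (Tyrobp) and the Fc receptor gamma chain (Fcer1g), and the Ly49 and NKG2A receptors that recognise MHC class I restrain them. In mouse liver the Ncr1 and Klrb1c pair is shared by conventional NK cells, which circulate and need Eomes, and by type 1 innate lymphoid cells (ILC1), which reside in the sinusoids, depend on T-bet and carry Itga1, Cd200r1, Cxcr6 and Il7r. The rule takes both.

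The members numbered 328 and 43 in the control mice, 66, 54 and 46 in the HFD+F+CCl4 mice, and 145, 68 and 51 in WD+F+CCl4 mice. They summed to 866076 and 63563 UMIs in control replicates 1 and 2 and to between 151148 and 554053 UMIs in the NASH mice. Their median depth was 2319.5 and 1202 UMIs per cell in the control mice and between 2416 and 3325 in the NASH mice. Control replicate 2 was therefore the thinnest library, and 1 UMI there stood for 15.7 CPM. CPM, the usual scaling of a gene's UMIs to the summed UMIs of the gated cells of a mouse, is the unit of all levels below. Of all kept cells, 732 barcodes occurred in 2 or more libraries, and 14 of the 801 NK barcodes were also kept in another library. A doublet score taken by rank marked 31 of the 801 NK cells (3.87%).

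Other markers of the type were read in the members. Nkg7, a granule membrane protein of cytotoxic lymphocytes, had a UMI in 95.1% and 55.8% of the NK cells of control replicates 1 and 2 and in 90.9% to 100% of those of the NASH mice. In B cells of the same mice, which should lack it, the share was 8.58% and 29.5% in control mice and 0.243% to 6.25% in NASH mice, at median depths of 982 to 2063.5 UMIs. Gzma, which encodes granzyme A, had a UMI in 76.5% and 53.5% of control NK cells against 4.6% and 24.7% of control B cells, and in 7.58% to 41.4% of the NK cells of NASH mice against 0% to 2.09% of their B cells, so 317 of 430 NASH members had no Gzma UMI. B cells of control replicate 2 had UMIs of both genes most often, and for Nkg7 the gap between NK cells and B cells was narrowest there. Of the 8 genes listed for ILC2 and ILC3 cells, 5 (Il13, Il5, Areg, Il22, Il17a) had no UMI in any NK cell, and the list summed to at most 13.2 CPM in a mouse.

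Some transcripts set the control libraries apart from the NASH libraries over all kept cells. There mt-Nd3 stood at 3.1 and 4.52 CPM in the control mice and at 521 to 1402 CPM in the NASH mice, and Gm28438 at 457 and 259 CPM against 0.155 to 1.38 CPM. The ribosomal gene Rpl24 stood at 619 and 677 CPM against 168 to 264 CPM, and Gm10076 at 254 and 108 CPM against 710.5 to 1568 CPM. The groups did not overlap in any of these genes. A difference between the control and NASH libraries that is not due to the model cannot be told apart from the model itself. T cell levels of the same libraries are therefore given below for the NK and lymphoid genes that passed in NASH against control NK cells.

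The rule genes were read as a description, with no test. Ncr1 stood at 893 and 692 CPM in control NK cells, at 557, 670 and 726 CPM in HFD+F+CCl4 mice and at 635, 680 and 734 CPM in WD+F+CCl4 mice. Klrb1c stood at 830 and 1180 CPM, at 851, 724 and 585 CPM, and at 686, 906 and 840 CPM in the same order. The ranges of control and NASH mice overlapped for both genes. Of the members, 597 held UMIs of both genes, 84 of Ncr1 alone and 120 of Klrb1c alone. At the edge, 172 cells had exactly 2 NK receptor UMIs and 84.3% of them had a Nkg7 UMI, against 52.4% of the 454 cells just outside with 1 NK receptor UMI. In addition, 99 members held 1 UMI of Cd3d or Cd3g, and 35 cells just outside held 2. Among cells with a Cd79a UMI but none of CD3 or Csf1r, 46 of 5083 (0.905%, median depth 1708 UMIs) had 2 NK receptor UMIs. The same held for 190 of 41682 cells with a Csf1r UMI but none of CD3 or Cd79a (0.456%, median depth 4884 UMIs). By mouse, the share among the Cd79a cells was 1.38% and 1.08% in control mice and 0% to 1.03% in NASH mice. Among the Csf1r cells it was 0.568% and 1.53% against 0.316% to 0.628%. In control replicate 2 these were 5 of 465 and 3 of 196 cells, and NK cells made up 1.03% of its kept cells.

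The share of NK cells was compared first. NK cells made up 3.04% and 1.03% of the kept cells of the control mice, 0.59%, 0.533% and 0.432% of those of the HFD+F+CCl4 mice, and 1.21%, 0.691% and 0.435% in WD+F+CCl4 mice. Of the 6 NASH mice, 5 lay below both control mice, and WD+F+CCl4 replicate 1 lay between them. The means were 2.04% ± 1.42 (SD, n = 2) in control mice and 0.648% ± 0.291 (SD, n = 6) in NASH mice, and the NK share of kept cells, NASH against control, differed by -1.39 percentage points, which did not pass an exact two-sided permutation test over the mice (p = 0.0714, where 0.0357 is the smallest p of this design). Exact 95% binomial intervals, which cover counting error only, ran from 2.72% to 3.38% in control replicate 1 and from 0.316% to 0.575% in HFD+F+CCl4 replicate 3. Without control replicate 1 the difference was -0.383 percentage points, and without control replicate 2 it was -2.39. With 3 NK receptor UMIs required the difference was -0.904 percentage points (p = 0.179), and without cells holding a T cell UMI it was -0.777 (p = 0.143, both by the exact permutation test). With 1 NK receptor UMI it was -4.4 and among cells of over 1000 genes -2.09, with all 6 NASH mice below both control mice in each (p = 0.0357, exact permutation test). The gate of 1 UMI moved control replicate 2, the thinnest library, from 1.03% to 6.09% and control replicate 1 from 3.04% to 4.33%, and of the 350 control cells with 1 NK receptor UMI 47.7% had a Nkg7 UMI and 65.7% a UMI of the myeloid gene Lyz2. The thinned values below use the same limit of 1 UMI.

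With lymphocytes as the denominator 1 mouse set the direction. Among NK, NKT-like, T and B cells alone, NK cells made up 5.86% and 4.05% in control mice, 15.3%, 4.27% and 4.1% in HFD+F+CCl4 mice, and 7.06%, 5.38% and 3.25% in WD+F+CCl4 mice. NASH mice lay above, within and below the control range, and the mean difference was 1.61 percentage points in the other direction (exact two-sided permutation test, p = 0.679). Without HFD+F+CCl4 replicate 1, at 15.3%, it was -0.141 (p = 0.952 by the same exact test). Cells with a Csf1r UMI but none of CD3 or Cd79a numbered 528 and 196 in control mice and 6117 to 7577 in NASH mice. Kept cells numbered 10788 and 4168 in control mice and 9846 to 11999 in NASH mice. With every cell thinned to 800 UMIs and the limit lowered to 1 NK receptor UMI, the share of kept cells was 5.39% and 6.28% in control mice and between 0.429% and 1.24% in NASH mice (p = 0.0357 by the same exact test). Thinning also removes Cd3 UMIs. With the other limits set on all UMIs the shares were 2.99% and 4.52% against 0.283% to 0.899% (exact permutation test, p = 0.0357). The NK share of WD+F+CCl4 mice exceeded that of HFD+F+CCl4 mice by 0.26 percentage points of kept cells (exact two-sided permutation test, p = 0.3; 3 mice against 3 cannot go below 0.1).

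**Figure D1:**
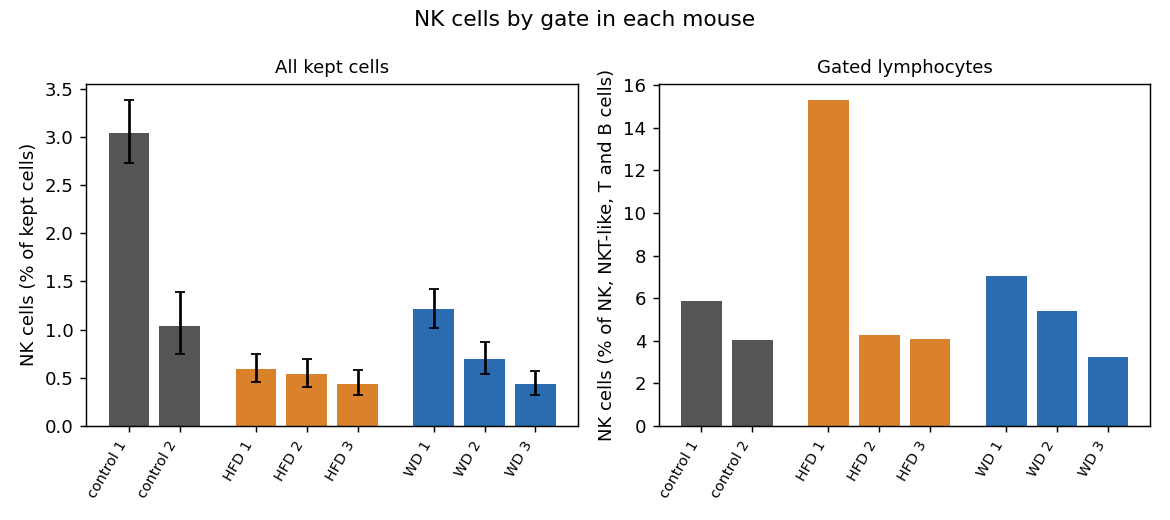
NK cells as a percentage of kept cells (left; bars are the value of 1 mouse, error bars exact 95% binomial intervals) and of NK, NKT-like, T and B cells (right), for 2 control mice (grey), 3 HFD+F+CCl4 mice (orange) and 3 WD+F+CCl4 mice (blue). On the left control replicate 1 stands highest at 3.04%, and on the right HFD+F+CCl4 replicate 1 stands highest at 15.3%.

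To see what marks these cells, their UMI sums were compared with those of T cells of the same mice (at least 2 UMIs of Cd3d, Cd3e and Cd3g, and none of the NK receptors). Of 7643 genes tested with edgeR (Benjamini-Hochberg adjusted p below 0.05, rule genes left out), 742 differed (9.71%), of which 367 were higher in NK cells (4.8%) and 375 lower (4.91%). The cells were picked by counts of the NK receptors and of CD3. Differences in genes that travel with Ncr1 and Klrb1c, or with CD3, thus follow from the choice.

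The largest rises were mostly lectin-like receptors of the NK gene complex on chromosome 6. Klra4 (Ly49D, activating; GRCm38 chr6:130043731-130067271) was higher by 7.28 ± 0.36 on the log2 scale (SE, adjusted p = 3.82e-11) and Klra8 (Ly49H, which recognises a viral protein) by 6.35 ± 0.45 (adjusted p = 3.03e-09). Klra4 stood at 472 and 47.2 CPM in control NK cells, 40.5, 174 and 123 CPM in HFD+F+CCl4 mice and 180.5, 59.3 and 198 CPM in WD+F+CCl4 mice, against 0 to 5.04 CPM in T cells. Every mouse had more Klra4 in NK cells than in T cells, and 5 of the 6 NASH mice lay between the control mice. Klrb1a, Klrb1b and Klrb1f, relatives of Klrb1c, were higher by 7.1 ± 0.36, 5.94 ± 0.26 and 4.41 ± 0.22, and Klri2 by 4.31 ± 0.38. Of 22 Ly49 and other inhibitory receptors listed, 16 could be tested, 10 were higher and 2 lower (Ctla4 and Pdcd1), with a median of 1.98 against -0.01 over all genes. That list also holds Klra4 and Klra8, which activate. Reads of the Ly49 and Klrb1 families can be split between near-identical copies, so values of single members are uncertain.

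The signalling adaptors were higher in NK cells. Fcer1g stood at 2012 and 897 CPM in control NK cells, at 1545, 1977 and 1715 CPM in HFD+F+CCl4 mice and at 1980, 1964 and 2382 CPM in WD+F+CCl4 mice. In T cells of the 8 mice it ranged from 103 to 295 CPM, without overlap, and the fold difference was 3.59 ± 0.22 on the log2 scale (adjusted p = 4.46e-10). Tyrobp was higher by 2.79 ± 0.18, Klrk1 (NKG2D) by 2.68 ± 0.14 and Klrd1 (CD94) by 1.74 ± 0.17. Of 17 activating receptors and adaptors, all tested, 13 were higher and 2 lower in NK cells (Zap70 and Cd247, both parts of T cell receptor signalling), with a median of 1.62. Among cytotoxic effectors, 9 of 12 tested were higher and none lower (median 1.24), with Gzmc at 7.38 ± 0.46, Prf1 (perforin) at 2.56 ± 0.36, Gzma at 2.38 ± 0.53 (adjusted p = 0.00469), Gzmb at 1.23 ± 0.29 and Nkg7 at 0.63 ± 0.15 (the latter 2 kept in 18 of 19 alternative settings). Gzma was higher in NK cells in 7 of 8 mice, since HFD+F+CCl4 replicate 2 had 1378 CPM in NK cells and 1520 CPM in T cells.

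Among transcription factors, Tbx21 (T-bet) ranged from 70.2 to 192 CPM in NK cells and from 35.2 to 83.6 CPM in T cells, was higher in 8 of 8 mice and differed by 1.28 ± 0.17 (adjusted p = 1.9e-05). Of 18 lineage factors tested, 6 were higher (Tbx21, Ahr, Id2, Zeb2, Irf8 and Stat4) and 3 lower (Tcf7, Ikzf2 and Rora), with a median of 0.22. Tcf7 and Rora kept this call in 11 of 19 alternatives each and Id2 in 18 of 19. Outside the lists, Car2, a carbonic anhydrase, was higher by 4.34 ± 0.25 and Spry2, an inhibitor of receptor tyrosine kinase signalling, by 3.5 ± 0.31. Xcl1, a chemokine that attracts dendritic cells, was higher by 2.9 ± 0.22, and Kit, the stem cell factor receptor, by 3.46 ± 0.44.

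Among the genes lower in NK cells were those of the T cell receptor. Of 12 T cell genes outside the rule, all tested, 11 were lower, with a median of -3.34. Trac, the alpha chain constant gene, stood at 38.1 and 142 CPM in control NK cells, 0, 0 and 0 CPM in HFD+F+CCl4 mice, and 3.61, 5.4 and 13.2 CPM in WD+F+CCl4 mice, against 460 to 683 CPM in T cells. It was thus highest in control replicate 2, where 20.9% of NK cells and 17% of B cells had a Trac UMI. The exception was Trbc1, the beta chain constant gene, at 372 to 547 CPM in NK cells and 312 to 845 CPM in T cells, a difference of -0.25 ± 0.13 (adjusted p = 0.281). By rule the largest falls also named Dapl1, Themis, Sit1, Slamf1 and Ccr7, genes of T cell signalling or naive T cells, Izumo1r, Trgv2 and Tcrg-C2 of T cell subsets, and BE692007 and Fam169b. Izumo1r had 1 UMI in all 801 NK cells and stood at 27.7 to 80.3 CPM in T cells.

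Some cell cycle and interferon genes were lower in NK cells than in T cells. Of 15 cell cycle genes tested 10 were lower and none higher (median -1.23), among them Tubb5, Stmn1 (13 of 19 alternatives) and Birc5 (12 of 19). The list sum was lower in NK cells in 7 of 8 mice, and in WD+F+CCl4 replicate 1 it was 3595 CPM in NK cells and 2262 CPM in T cells. Of 18 interferon response genes tested 6 were lower and none higher (median -0.61), and the interferon sum was lower in 7 of 8 mice, with 3662 CPM in NK cells and 3383 CPM in T cells of HFD+F+CCl4 replicate 1. Of the 12 glycolysis genes 4 were lower (Aldoa, Pkm, Gapdh and Gpi1, the last in 10 of 19 alternatives). Ly6a (Sca-1), one of the interferon genes, ranged from 25.3 to 441 CPM in NK cells and from 275 to 617 CPM in T cells and was lower in each of the 8 mice.

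**Figure D2:**
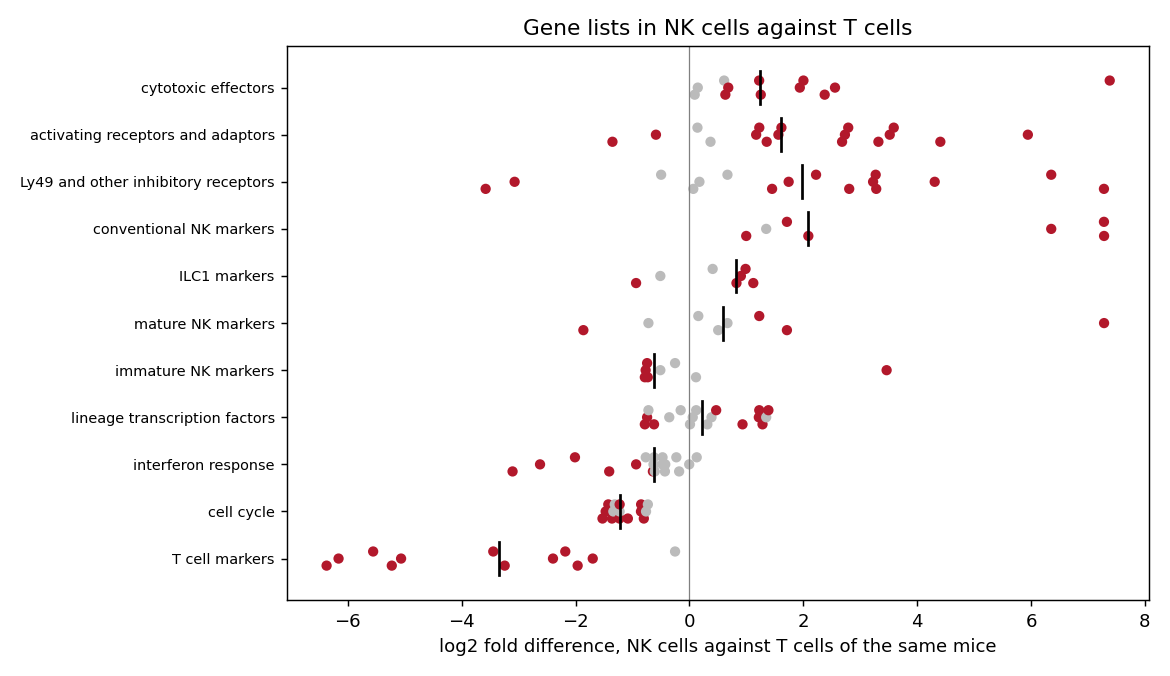
Log2 fold difference between NK cells and T cells of the same 8 mice for the genes of 11 lists, each point 1 tested gene, red where the adjusted p was below 0.05 (edgeR) and grey elsewhere, with the list median as a black bar. The medians of cytotoxic effectors (1.24) and of the receptor lists lie right of 0. Those of cell cycle genes (-1.23) and T cell markers (-3.34) lie left of it.

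NKT-like cells, which had both the NK receptors (at least 2 UMIs) and CD3 (at least 2 UMIs), were the nearest gate. They numbered 759 and 60 in control mice, 13, 37 and 24 in HFD+F+CCl4 mice and 64, 32 and 13 in WD+F+CCl4 mice. Their median depth was 3264 and 2538.5 UMIs in control mice, against 2319.5 and 1202 in NK cells. In NASH mice it was 2341.5 to 3615.5 UMIs, against 2416 to 3325 in NK cells. Between the 2 gates 190 of 2790 genes differed (6.81%), 83 higher in NK cells (2.97%) and 107 lower (3.84%). Prf1 was 2.41 ± 0.26 higher on the log2 scale in NK cells and Gzma 1.74 ± 0.25 (adjusted p = 6.18e-05). Klra8, Car2, Gzmc, Klrb1a, Klrb1b, Klri2 and Klrb1f were again among the 10 largest rises, at 3.27 ± 0.46 to 2.01 ± 0.18, beside Nrgn, a calmodulin-binding protein (2.39 ± 0.26), Atp1b1, a sodium pump subunit (2.04 ± 0.23), and Zeb2, a factor of mature NK cells (1.89 ± 0.32). Of 12 cytotoxic effectors tested 7 were higher and none lower (median 0.6 against 0.01 over all genes).

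Gzmb did not pass in this comparison (0.48 ± 0.17, adjusted p = 0.119), and neither did Tbx21 (0.24 ± 0.18, adjusted p = 0.615). The IL-7 receptor gene Il7r was lower in NK cells (-0.54 ± 0.14, adjusted p = 0.0188, 14 of 19 alternatives), as were Ltb (-0.62 ± 0.12) and Cxcr6 (-0.96 ± 0.24, 17 of 19). The call of Il7r was lost without control replicate 1 or WD+F+CCl4 replicate 1 or 2, and with no filter beyond 1 count. It was also lost without cells holding a T cell UMI, as was that of Cxcr6. Of 6 ILC1 genes tested 1 was higher (Tmem176a) and 2 lower (Il7r and Cxcr6). The largest falls by rule were Tcrg-C2, Art2b, Plcg1, Gramd3, Ly6a, Ifi27l2a, Mmp9, Rcbtb2, Ms4a6b and Thy1, from -4.96 ± 0.41 to -1.35 ± 0.17, and 5 of 6 T cell genes tested were lower. The T cell and NKT-like comparisons share the NK cells and are not independent of each other.

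NASH mice were then compared with control mice within NK cells. Of 4139 genes tested, 145 differed (3.5%), with 63 higher in NASH mice (1.52%) and 82 lower (1.98%). Of the 145 genes 142 had every NASH mouse on 1 side of both control mice, so non-overlap adds little to a call. The 10 largest falls by rule were not NK genes. Mug1, Mup11, Cyp2e1, Cyp3a11, Mup3, Pigr, Serpina3k, Apob, Serpina1d and Ces3a, all abundant in hepatocytes, had the largest falls, from 7.82 for Mug1 to 5.51 for Ces3a on the log2 scale, and Mup11 had no UMI in NK cells of NASH mice. Pigr kept its call in 18 of 19 alternatives and Mup11 in 11 of 14. Mup3, a major urinary protein, stood at 633 and 503 CPM in control NK cells and at 0 to 38.1 CPM in NASH mice, and in T cells at 442 and 448 CPM against 1.02 to 26.5 CPM. The 12 listed hepatocyte genes, all detected and Alb the most abundant, summed to 5042 and 4468 CPM in control NK cells, 1130, 1269 and 152 CPM in HFD+F+CCl4 mice and 244, 405 and 311 CPM in WD+F+CCl4 mice. Of 11 tested 10 were lower, and none of the 12 differed between NK cells and T cells in its NASH difference. Alb had a UMI in 79.6% and 72.1% of control NK cells and in 73.1% and 77.9% of control B cells. The part of free hepatocyte RNA in these falls was not tested.

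Other cells' genes also varied between mice. The 11 monocyte and macrophage genes (all detected, Apoe the most abundant) summed to 1922 and 2989 CPM in control NK cells, 6939, 3643 and 2283 CPM in HFD+F+CCl4 mice and 1956, 1635 and 2746 CPM in WD+F+CCl4 mice, and only C1qb of 8 tested was higher in NASH mice. Lyz2 had a UMI in 84.8% of the NK cells of HFD+F+CCl4 replicate 1 and in 91.8% of its B cells. The 8 B cell genes (all detected, Ighm the most abundant) summed to 351 and 1479 CPM in control NK cells and 159 to 275 CPM in NASH mice. The 12 T cell genes summed to 1119 and 1683 CPM in control NK cells and 816 to 1216 CPM in NASH mice, with Trbc1 the most abundant. The 9 dendritic cell genes (Cd74 the most abundant) summed to 2339 and 5019 CPM against 1025 to 4009 CPM, and of 6 tested Siglech was lower in NASH mice. The 7 endothelial genes (all detected, Pecam1 the most abundant) summed to 338 and 1274 CPM in control NK cells and 59.6 to 986 CPM in NASH mice, where 4 of 6 lay below both control mice, and none of the 7 passed (median -1.24). The 7 neutrophil genes (S100a9 the most abundant, Ly6g at 0) summed to 100.5 and 519 CPM against 64.7 to 1191 CPM, and the 5 erythroid genes (Hbb-bs the most abundant) to 4732 and 2706 CPM against 0 to 6111 CPM. Their part in the changes was not tested. With every cell that held a UMI of Adgre1, C1qa, C1qb, C1qc, Cd79b or Ms4a1 removed, 74 of 1573 genes differed, 62 of them among the 145. Of the 38 named genes called in the main fit only 23 could be tested there. Of these 21 kept their call, and those of Kit and Aldoa were lost. The removal left NK cells at 2.64% and 0.624% of kept cells in control mice, 0.0447%, 0.158% and 0.263% in HFD+F+CCl4 mice and 0.942%, 0.579% and 0.137% in WD+F+CCl4 mice, so HFD+F+CCl4 replicate 1 kept few of its 66 NK cells.

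Control replicate 1 held most of the control NK cells, and fewer genes passed without it. A fit that leaves out 1 control mouse keeps only the other, so its spread comes from the NASH mice alone. Calls lost in such a fit, here and below, may have leaned on that mouse, but the fit cannot show it. None of the named genes tested in NASH against control changed sign without control replicate 1 or without control replicate 2. For genes described singly below, the number of alternative settings that kept the call is given where it was not all of them, out of those in which the gene could be tested.

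By rule the largest rises included mt-Nd3, Ccdc184, Gpnmb, Gzmc, Serpina3f, Capg, Ttn (17 of 19), Sdhaf1 (18 of 19) and Lag3. The first of these is the library-wide difference given above. Ccdc184 had no UMI in control NK cells and stood at 52.7 to 124 CPM in NASH mice (19 of 20), while in T cells it stood at 0 to 2.98 CPM in every mouse. Gpnmb, a gene of lipid-laden macrophages, stood at 1.16 and 0 CPM in control NK cells and 10.8 to 147 CPM in NASH mice (17 of 19), and over all kept cells at 9.04 and 7.54 CPM against 161 to 1012 CPM. Capg, an actin-capping protein, rose by 3.1 ± 0.39 and Serpina3f, a serine protease inhibitor, by 3.58 ± 0.4 (both 19 of 20). Lag3, an inhibitory receptor, rose by 2.64 ± 0.66 (adjusted p = 0.0394), and 9 of 19 alternatives kept this call.

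Granzyme C rose in NK cells and was nearly absent from T cells. Gzmc (GRCm38 chr14:56231441-56234656) stood at 39.3 and 47.2 CPM in control NK cells, at 203, 915 and 404 CPM in HFD+F+CCl4 mice and at 754, 739 and 953 CPM in WD+F+CCl4 mice. All NASH mice lay above both control mice, and T cells ranged from 0 to 6.3 CPM. The rise was 4.01 ± 0.56 on the log2 scale (adjusted p = 0.00042), and of 20 alternatives 19 kept it, the exception being the fit without control replicate 1. It was the only riser among 12 cytotoxic effectors tested (median 0.12).

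Among cytokines and chemokines, Xcl1 and Ltb rose. Xcl1 stood at 697 and 755 CPM in control NK cells, at 1834, 2488 and 2798 CPM in HFD+F+CCl4 mice and at 2424, 3728 and 2150 CPM in WD+F+CCl4 mice. The groups did not overlap, the rise was 1.9 ± 0.29 (adjusted p = 0.00104), and all 20 alternatives kept it. Ltb, the lymphotoxin beta subunit, stood at 162 and 220 CPM against 486 to 708 CPM and rose by 1.77 ± 0.26, kept in all 20 alternatives. Of 7 cytokines and chemokines tested these 2 rose and none fell (median 1.24). Ifng, the signature cytokine of NK cells, stood at 85.4 and 62.9 CPM, at 187, 54.5 and 11.7 CPM and at 28.9, 10.8 and 112 CPM, so that the groups overlapped (-0.35 ± 0.65, adjusted p = 0.841).

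Of the ILC1 genes some rose. Of 7 tested 4 rose and none fell, with a median of 1.61 against 0 over all genes. Il7r stood at 132 and 142 CPM in control NK cells, 643, 376 and 567.7 CPM in HFD+F+CCl4 mice and 188, 421 and 304 CPM in WD+F+CCl4 mice, with no overlap, and rose by 1.61 ± 0.34 (adjusted p = 0.0141; 17 of 20, lost without either control mouse). Cd200r1, an inhibitory receptor, stood at 16.2 and 0 CPM against 56 to 126 CPM and rose by 2.43 ± 0.48 (17 of 19). The ion channel genes Tmem176a and Tmem176b rose by 2.17 ± 0.29 and 2.47 ± 0.34, in T cells they stood at 34.8 to 83.2 CPM in control mice and 83.8 to 293 CPM in NASH mice, and all 20 alternatives kept both. Itga1 (CD49a), which defines ILC1 at the surface, did not pass. It stood at 117 and 330 CPM in control NK cells and at 37.8 to 179 CPM in NASH mice (-1.09 ± 0.45, adjusted p = 0.234). Cxcr6 and Tnfsf10 (TRAIL) did not pass either, at 0.2 ± 0.31 and 0.87 ± 0.37.

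The share of cells with an Il7r UMI was 17.4% and 14% of NK cells in control mice, 68.2%, 46.3% and 50% in HFD+F+CCl4 mice, and 35.9%, 55.9% and 45.1% in WD+F+CCl4 mice. All NASH mice lay above both control mice, as they did with each cell thinned to 800 UMIs (7.34% and 9.52% against 17.6% to 38.8%). In B cells of the same mice it was 0% to 8.87%.

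Of 8 immature NK genes tested 3 rose (Il7r, Kit and Ltb) and none fell, with a median of 1.1. Kit stood at 23.1 and 78.7 CPM in control NK cells, 223, 114 and 217 CPM in HFD+F+CCl4 mice and 84.8, 108 and 192 CPM in WD+F+CCl4 mice, and rose by 2.32 ± 0.48 (adjusted p = 0.0109; 16 of 20 alternatives). Il2ra (CD25), the high-affinity IL-2 receptor chain, rose by 1.98 ± 0.43 (13 of 19), and Tox, a factor of early innate lymphoid and exhausted T cells, by 1.73 ± 0.34 (18 of 20). Aldoa, a glycolysis enzyme, was the only one of 10 tested in that list to rise, and 11 of 20 alternatives kept it.

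The falls included genes of mature, circulating NK cells. Of 8 mature NK genes tested 3 fell and none rose (median -1.44), and of 7 conventional NK genes 1 fell (median -1.29). Ly6c2 stood at 447 and 676 CPM in control NK cells, 20.3, 16.3 and 87.8 CPM in HFD+F+CCl4 mice and 134, 156 and 126 CPM in WD+F+CCl4 mice. It fell by 2.76 on the log2 scale (SE 0.34, adjusted p = 0.000172) with no overlap between the groups, and all 20 alternatives kept it. Its near-identical neighbour Ly6c1 may share reads with it. S1pr5, the receptor that lets NK cells leave tissue, stood at 109 and 62.9 CPM against 5.07 to 43.2 CPM and fell by 2.27 (SE 0.56, adjusted p = 0.0334; 11 of 16 alternatives). Zeb2 fell by 1.31 (SE 0.32; 13 of 20).

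Eomes, the factor that conventional NK cells need, stood at 259 and 173 CPM in control NK cells, 35.5, 103 and 123 CPM in HFD+F+CCl4 mice and 126, 80.9 and 59.5 CPM in WD+F+CCl4 mice. All NASH mice lay below both control mice, but the difference did not pass (-1.29 ± 0.35, adjusted p = 0.0564). Tbx21 differed by -0.35 ± 0.3 (adjusted p = 0.586). Klf2, a factor of quiescence and recirculation, stood at 312 and 315 CPM against 75.5 to 147 CPM and fell by 1.38 (SE 0.24, adjusted p = 0.00391; 19 of 20), and Irf8, which dendritic cells also use, fell by 1.52 (SE 0.36; 15 of 20). Siglech of the dendritic cell list was lower in the same NK cells, at 115 and 330.4 CPM against 0 to 39.7 CPM, and its part in the fall of Irf8 was not tested. Itga4, an integrin of homing, fell by 0.94 (SE 0.25; 8 of 20). Of 17 lineage factors tested 1 rose (Tox) and 3 fell, and of 15 homing genes 2 fell and none rose (median -0.52).

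Among receptors, Klrc1 (NKG2A, inhibitory) stood at 353 and 425 CPM in control NK cells, 218, 142 and 152 CPM in HFD+F+CCl4 mice and 148, 135 and 132 CPM in WD+F+CCl4 mice. The groups did not overlap, and it fell by 1.22 (SE 0.23, adjusted p = 0.00537; 18 of 20). Cd247, the CD3 zeta signalling chain, fell by 1.42 (SE 0.36; 7 of 19) and was the only one of 16 activating receptors and adaptors to pass. Klrk1 stood at 566 to 1083 CPM in all mice (-0.02 ± 0.25, adjusted p = 0.99), and Klrd1, Tyrobp and Fcer1g differed by -0.17 ± 0.28, -0.31 ± 0.22 and 0.41 ± 0.28, none of which passed.

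Gzma had the most UMIs of the effectors when pooled over the mice, though not in every mouse, and varied widely. It stood at 6375 and 2391 CPM in control NK cells, at 263, 1378 and 2008 CPM in HFD+F+CCl4 mice and at 3944, 1818 and 1647 CPM in WD+F+CCl4 mice. Of the NASH mice 5 lay below both control mice and WD+F+CCl4 replicate 1 lay between them, and the difference did not pass (-1.29 ± 0.51, adjusted p = 0.209). The share of NK cells with a Gzma UMI was 76.5% and 53.5% in control mice, 7.58%, 22.2% and 28.3% in HFD+F+CCl4 mice and 41.4%, 19.1% and 19.6% in WD+F+CCl4 mice, without overlap and also when thinned to 800 UMIs (70.3% and 47.6% against 6.15% to 37.9%). In B cells of the same mice the share with a Gzma UMI was also higher in control mice, at 4.6% and 24.7% against 0% to 2.09% in NASH mice. Prf1 differed by -1.07 ± 0.39 (adjusted p = 0.162), Gzmb by -0.24 ± 0.33 and Nkg7 by 0.2 ± 0.29, none of which passed.

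No gene passed in the lists of interferon response (9 tested, median -0.68), immediate early and heat shock genes (18, median 1.04), cell cycle (8, median 0.85), fatty acid handling (5, median 1.66) and TGF-beta response (7, median 0.33). HFD+F+CCl4 replicate 1 had the highest sum of the immediate early and heat shock genes, 9178 CPM against 2104 to 4142 CPM in the other mice. Of 13 Ly49 and other inhibitory receptors tested only Lag3 rose and Klrc1 fell (median -0.61), and of 14 cytokine receptors 2 rose, Il7r and Il2ra (median -0.28).

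The T cells of the same libraries gave the following levels, with no test of their own NASH difference. Ltb stood at 241 to 296 CPM in control T cells and 536 to 729 CPM in NASH T cells, Cd200r1 at 5.96 to 10.1 and 13.7 to 58.6 CPM, and Tox at 34 to 36.3 and 96.5 to 366 CPM. Capg stood at 41.8 to 68.1 and 121.5 to 333 CPM, Serpina3f at 19.2 to 26.5 and 28.3 to 136 CPM, Lag3 at 7.82 to 10.1 and 16.3 to 347 CPM, and Aldoa at 279 to 286 and 364 to 570.2 CPM. All of these were thus higher in every NASH mouse than in both control mice in T cells too, and Irf8 (198 to 516 against 83.8 to 119 CPM) and Klrc1 (55.5 to 60.5 against 23.2 to 45.3 CPM) were lower. For Il7r (189 to 449 and 173 to 724 CPM), Klf2 (194 to 203 and 108 to 327 CPM), Il2ra (70.6 to 77.8 and 26.3 to 92.7 CPM) and S1pr5 (0.993 to 7.56 and 2.28 to 11.8 CPM) the groups overlapped in T cells. They also overlapped for Zeb2 (39.9 to 81.9 and 38.2 to 122 CPM), Itga4 (216 to 219 and 211 to 403 CPM) and Cd247 (118.5 to 122.7 and 119.4 to 248 CPM). The share of all genes without overlap in T cells is not given here, so these values are a description only.

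**Figure D3:**
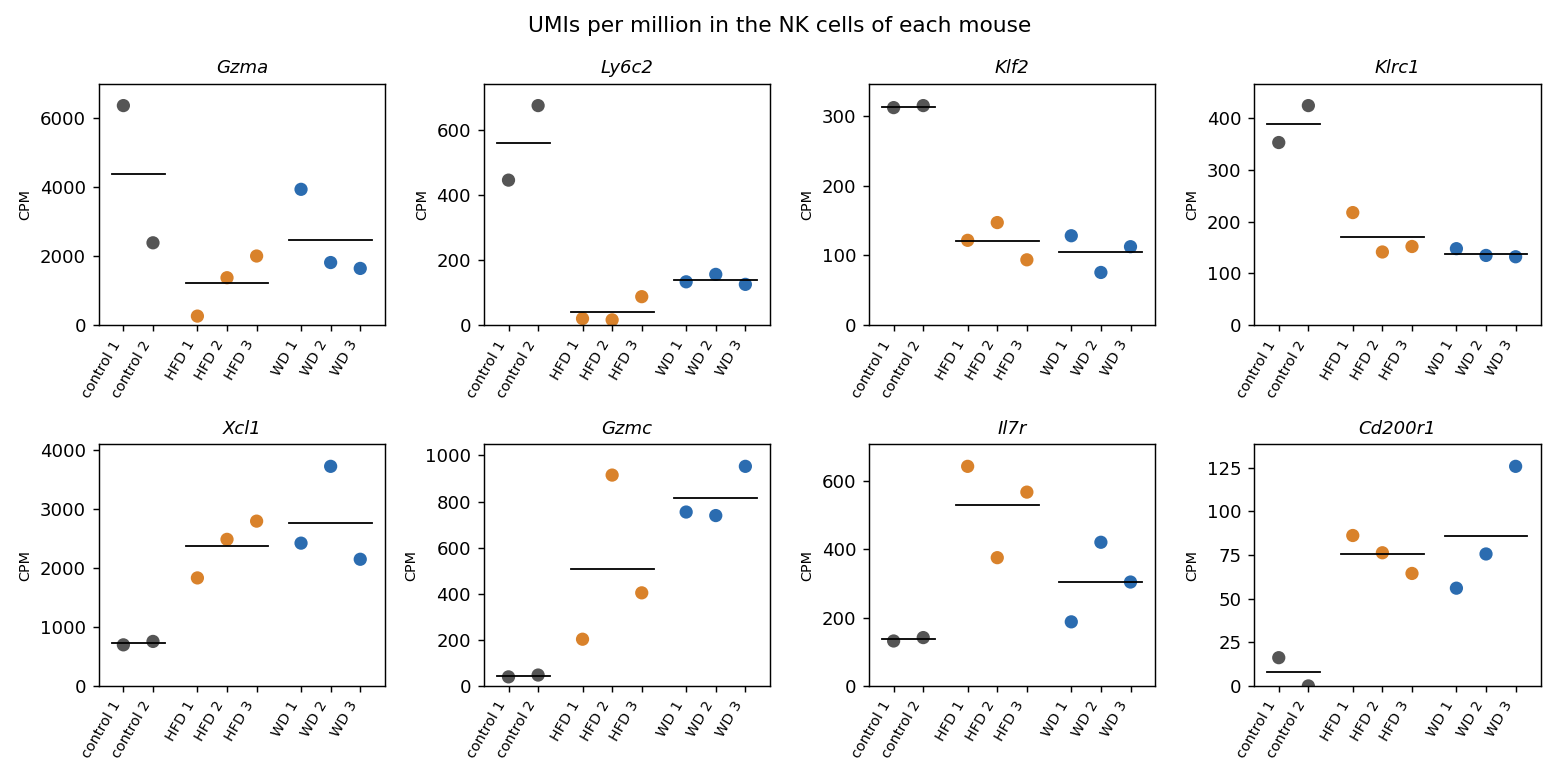
CPM of 8 genes in the NK cells of each mouse (points; black lines are group means of 2, 3 and 3 mice; y axes start at 0). Ly6c2, Klf2 and Klrc1 lie lower in all 6 NASH mice than in both control mice, Xcl1, Gzmc, Il7r and Cd200r1 lie higher, and Gzma of WD+F+CCl4 replicate 1 (3944 CPM) lies between the control mice.

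Both NASH models were also set against control. In HFD+F+CCl4 mice 85 of 4139 genes differed (2.05%), 41 higher (0.991%) and 44 lower (1.06%), and in WD+F+CCl4 mice 149 (3.6%), 71 higher (1.72%) and 78 lower (1.88%). These comparisons share the 2 control mice. Xcl1 rose by 1.75 in HFD+F+CCl4 and by 2.05 in WD+F+CCl4 mice, Gzmc by 3.63 and 4.39, and Tmem176b by 2.39 and 2.56. In HFD+F+CCl4 mice 18 of 20 alternatives kept Xcl1, and 19 of 20 kept Gzmc and Tmem176b. Of 7 ILC1 genes 4 rose in HFD+F+CCl4 and 3 in WD+F+CCl4 mice, where Il7r did not pass (1.23, adjusted p = 0.0862). Ly6c2 changed by -3.69 and -1.83, the latter kept in 17 of 20.

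Between the models no gene passed. At an unadjusted p below 0.05 there were 307 of 4139, DESeq2 called 2 genes, and the share called was 0%. Ly6c2, at 20.3, 16.3 and 87.8 CPM in HFD+F+CCl4 and 134, 156 and 126 CPM in WD+F+CCl4 NK cells, did not overlap between the models, yet did not pass.

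To ask which changes were particular to NK cells, the NASH difference in NK cells was tested against that in T cells of the same mice. Of 10225 genes 58 differed (0.567%), 16 more positive in NK cells (0.156%) and 42 more negative (0.411%). Xcl1 was more positive by 1.75 ± 0.23 on the log2 scale (adjusted p = 0.000107), and in T cells it stood at 212 and 271 CPM in control mice and 146 to 423 CPM in NASH mice. Kit was more positive by 3.89 ± 0.45 (adjusted p = 1.16e-05). In T cells it stood at 10.7 and 76.9 CPM in control mice and 3.97 to 7.64 CPM in NASH mice, so that all NASH mice lay below both control mice, and above both in NK cells. Both held in 19 of 19 alternatives. Gzmc (4.73 ± 0.64), Itgb3 (2.75 ± 0.48), Il2ra (2.24 ± 0.46) and Asb2 (2.17 ± 0.4) completed the 5 most positive by rule. Each of these 4 was lost without control replicate 1, and Il2ra was kept in 15 of 19 alternatives and the others in 18. In Itgb3, an integrin subunit, the T cell values of NASH mice were lower (61.2 and 65.6 CPM against 7.93 to 36.8 CPM), while in NK cells it did not pass (0.95 ± 0.47, adjusted p = 0.313). Of 17 activating receptors and adaptors 4 were more positive (Klrb1b, Klrb1f, Cd160 and Cd226) and Cd247 more negative, kept in 13, 12, 11, 17 and 14 of 19 alternatives in that order and all lost without control replicate 1.

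None of 8 ILC1 genes differed between NK cells and T cells in their NASH difference (median 0.54), so the rises of Il7r, Cd200r1, Tmem176a and Tmem176b were not shown to be particular to NK cells. Of 9 mature NK genes, however, 7 were more negative in NK cells (Ly6c2, Zeb2, Klrg1, Itgam, Prdm1, S1pr5 and Cx3cr1), with a median of -2.5 against -0.01 over all genes. Without control replicate 1, which leaves 1 control mouse, these calls were lost, and with DESeq2 6 of them were (all but S1pr5). Over the alternatives the value ran from -2.79 to -2.13 for Ly6c2, from -3.58 to -2.43 for Prdm1 and from -3.67 to -1.32 for Klrg1. It ran from -4.88 to -1.11 for S1pr5 and from -2.52 to -0.0017 for Zeb2. Itgam and Cx3cr1 changed sign without control replicate 1. Of the 7 genes, only Ly6c2, Zeb2 and S1pr5 also passed in NASH against control within NK cells. For Klrg1, Itgam, Prdm1 and Cx3cr1 the part of T cells in the difference was not tested. Ly6c2 stood at 522 and 666 CPM in control T cells and 194 to 956 CPM in NASH T cells, with overlap, and the difference of the changes was -2.5 ± 0.43 (adjusted p = 0.00257). Eomes was more negative by 3.21 ± 0.55 (adjusted p = 0.00245; 17 of 19, lost without control replicate 1). In T cells it stood at 15.8 and 20.2 CPM in control mice and at 30.7 to 158 CPM in NASH mice, so that it was higher in all NASH mice in T cells and lower in all in NK cells.

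For other genes the control and NASH mice stood apart in T cells. Ccl5, a chemokine of cytotoxic cells, stood at 1615 and 1806 CPM in control T cells and at 3482 to 14840 CPM in NASH T cells, while in NK cells it stood at 12779 and 5601 CPM against 4174 to 6731 CPM (a difference of the changes of -2.57 ± 0.33, adjusted p = 7.73e-05; 18 of 19). Gzmk had at most 4.62 CPM in the NK cells of any mouse and stood at 3.73 and 7.56 CPM in control T cells and 27.8 to 337 CPM in NASH T cells. Prf1 was more negative by 2.43 (16 of 19), Ccl3 by 4.58 (16 of 19) and Cx3cr1 by 3.62 (17 of 19). The 5 most negative by rule were Nrn1, BE692007, Gzmk, Ccl3 and Cx3cr1, kept in 16, 16, 17, 16 and 17 of 19 alternatives, of which Nrn1 and BE692007 had no UMI in NASH NK cells. In the fit without control replicate 1, which leaves 1 control mouse, Itgam and Cx3cr1 turned to 0.45 and 0.83.

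**Figure D4:**
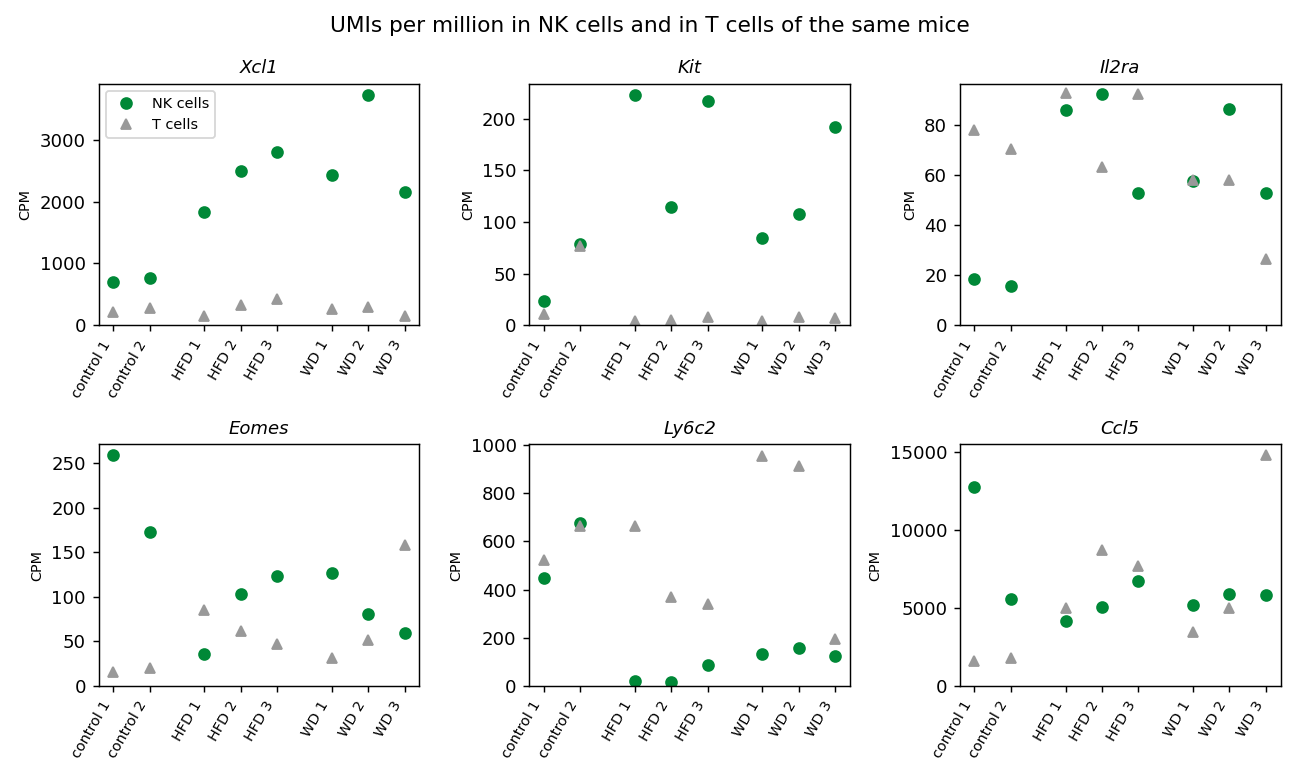
CPM of 6 genes in NK cells (green circles) and T cells (grey triangles) of each mouse (y axes start at 0). Xcl1, Kit and Il2ra are higher in NASH than in control NK cells, and Eomes is lower in NASH NK cells but higher in NASH T cells, where Ccl5 reaches 14840 CPM.

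The cells were also sorted by which of 2 marker sets had more UMIs, Itga1, Cd200r1, Cxcr6, Tnfsf10 and Zfp683 (ILC1-leaning) or Eomes, Itga2, Klra4, Klra8, S1pr5 and Cma1 (NK-leaning). This is a range on a score and not a cell type, and of the 801 cells 124 had equal numbers, at the limit itself, and 177 differed by 1 UMI. Most of the 124 had no UMI of either set. Such cells were 8.54% and 27.9% of NK cells in control mice and 8.7% to 29.4% in NASH mice. ILC1-leaning cells made up 29.9% and 46.5% of NK cells in control mice, 68.2%, 61.1% and 52.2% in HFD+F+CCl4 mice and 44.1%, 51.5% and 74.5% in WD+F+CCl4 mice. Of the NASH mice 5 lay above both control mice. The means of 38.2% ± 11.8 (SD, n = 2) and 58.6% ± 11.4 (SD, n = 6) differed by 20.4 percentage points, which did not pass an exact two-sided permutation test (p = 0.107). With each cell thinned to 800 UMIs the difference was 4.9 percentage points (p = 0.357 by the same exact test). With a margin of 2 UMIs it was 19.8, with all 6 NASH mice above both control mice (p = 0.0357 by the same exact test). NK-leaning cells made up 61.3% and 25.6% in control mice and 9.09% to 37.2% in NASH mice.

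The classes carried other genes that the sets did not hold. In NK-leaning cells Gzma had a UMI in 96.2% of 212 control cells and 74.1% of 108 NASH cells, and Prf1 in 80.2% and 68.5%. In ILC1-leaning cells Gzma had a UMI in 44.1% of 118 control cells and 9.62% of 239 NASH cells, and Il7r in 36.4% and 63.6%, against 4.72% and 5.56% of NK-leaning cells. Xcl1 had a UMI in 69.5% of control and 95% of NASH ILC1-leaning cells and in 22.2% and 55.6% of NK-leaning cells. In B cells of the same mice, as background, its share was 2.67% and 16.1% in control mice and 0.243% to 3.12% in NASH mice. Median depth was 2221.5 and 2799 UMIs in ILC1-leaning and 2354 and 3447.5 UMIs in NK-leaning cells, and cells were pooled over mice, so these shares carry no test. Control replicate 1 gave 201 of the 212 control NK-leaning cells and 98 of the 118 control ILC1-leaning cells. WD+F+CCl4 replicate 1 gave 54 of the 108 NASH NK-leaning cells and 64 of the 239 NASH ILC1-leaning cells.

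**Figure D5:**
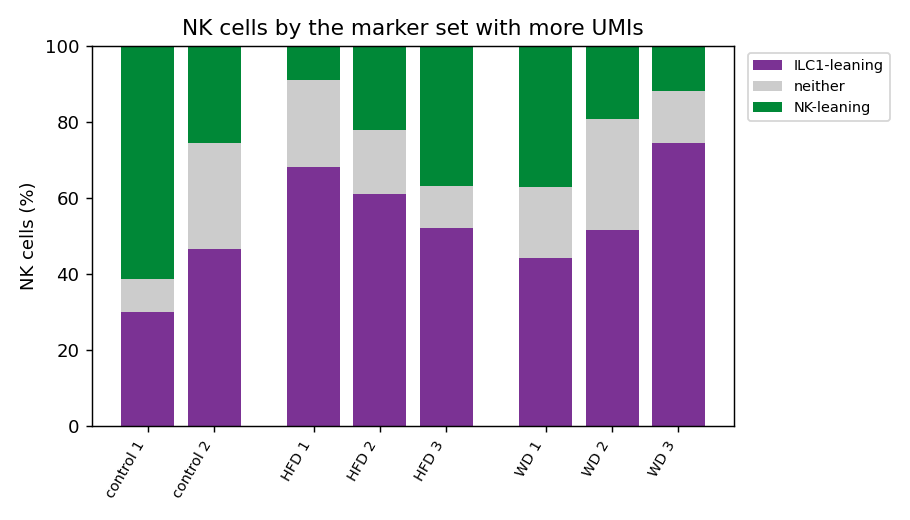
Share of NK cells (%) in each mouse that had more UMIs of the ILC1 set (purple), more of the NK set (green) or equal numbers, mostly no UMI of either (grey). The ILC1-leaning share is lowest in control replicate 1 (29.9%) and highest in WD+F+CCl4 replicate 3 (74.5%).

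The starts of the genes that changed were read for a motif. T-bet and Eomes are T-box factors, which bind sites like TCACACC. The RefSeq promoters (GRCm38.p6, 250 bases before to 50 after the start) held 9 of the 12 list genes that rose and 8 of the 8 that fell in NASH NK cells. The letters TCACACC, on either strand, were found in 1 of each (Xcl1 and Itga4), and in 4.6% of the 27025 genes with a promoter there. Both windows are printed 5′ to 3′ on the gene's own strand with the match in capitals, since they are the changed genes that hold it.
Xcl1, chr1:164935473-164935772, minus strand: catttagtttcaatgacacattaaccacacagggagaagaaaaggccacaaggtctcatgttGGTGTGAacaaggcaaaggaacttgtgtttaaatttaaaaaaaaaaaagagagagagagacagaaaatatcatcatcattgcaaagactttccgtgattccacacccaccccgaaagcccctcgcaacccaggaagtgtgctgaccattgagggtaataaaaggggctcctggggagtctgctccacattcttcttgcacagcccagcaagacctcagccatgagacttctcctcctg
Itga4, chr2:79255176-79255475, plus strand: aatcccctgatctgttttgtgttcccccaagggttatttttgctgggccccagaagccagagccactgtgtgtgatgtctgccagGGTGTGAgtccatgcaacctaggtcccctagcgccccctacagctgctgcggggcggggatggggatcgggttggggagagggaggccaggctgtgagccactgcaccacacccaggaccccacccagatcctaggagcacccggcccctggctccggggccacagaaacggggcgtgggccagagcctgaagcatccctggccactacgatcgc
The capitals read as the reverse complement GGTGTGA in both, starting 188 bases before the start of Xcl1 and 165 before that of Itga4. The RUNX core TGTGGT, on either strand, was in 3 of the 9 (Gzmc, Xcl1 and Il7r) and 3 of the 8 (Klrc1, Ly6c2 and Itga4), and in 18.9% of all. A match of letters is a description and not a bound site.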

How the data were processed

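The authors deposited UMI counts, whole numbers per gene and barcode, in 1 matrix for all 8 libraries, made with Cell Ranger on GRCm38. The file header names Cell Ranger 4.0.0, and the methods a later version, and bcl2fastq 2.20 is named in the processing notes. The members and gene lists were chosen with earlier results of these data known.

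UMIs were summed over the gated cells of each mouse and tested with edgeR 4.0.16 (quasi-likelihood, TMM, filterByExpr with a minimum of 10) in R 4.3.3. The 8 mice entered 1 fit of 3 groups, NK cells were compared with other gates with mouse as a block, and p-values were adjusted over all genes tested except the 7 rule genes. DESeq2 1.42.0 was an alternative. CPM were taken over all UMIs of the gate. Genes were named as the 10 largest changes each way (5 in the test against T cells of the NASH difference) with adjusted p below 0.05, mean log2 CPM over 5 and every mouse on 1 side, leaving out markers of other cells and unnamed genes, beside the members of the lists that passed, and 1 gene that the rule named is not reported here. Shares were compared with exact permutation tests. Positions came from GENCODE M21. The fits were tested on simulated data. Libraries held 6135827 to 64855024 UMIs.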

Additional observations from a re-analysis of the deposited data

Results flagged for a closer look

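Among 35 values checked over the 6 NASH mice, 3 had 1 mouse far from the others, where chance alone marks about 1 in 20. WD+F+CCl4 replicate 1 had the highest share of NK cells, 1.21% of kept cells. Itga1 stood at 179 CPM in the NK cells of WD+F+CCl4 replicate 3, and Klrc1 at 218 CPM in those of HFD+F+CCl4 replicate 1.

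The NASH difference of 10 named genes differed between NK cells and T cells of the same mice by the test of that difference (log2 scale). It was more positive in NK cells for Gzmc (4.73), Kit (3.89), Itgb3 (2.75), Il2ra (2.24) and Asb2 (2.17), and more negative for Nrn1 (-9.06), BE692007 (-8.19), Gzmk (-6.96), Ccl3 (-4.58) and Cx3cr1 (-3.62). Nrn1 and BE692007 had no UMI in the NK cells of NASH mice, so their fitted values are no measure of size. The value of Gzmk, also rare in NK cells, ran from -10.8 to -0.867 over the alternative settings.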

How the results depend on the processing

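The replicate numbers did not pair the mice (correlations of same-numbered mice between -0.262 and 0.123), and a replicate block left 83 genes in NASH against control, 36 in HFD+F+CCl4 and 74 in WD+F+CCl4 against control, in place of 145, 85 and 149. In the same order, with no filter beyond 1 count there were 407, 260 and 347, with a gate of 1 UMI 257, 146 and 236, and without cells holding macrophage or B cell UMIs (chosen after seeing the data) 74, 36 and 73. Without cells holding a T cell UMI, 47 genes passed in HFD+F+CCl4 (45 among the 85) and 92 in WD+F+CCl4 (90 among the 149) against control. Leaving out 1 mouse at a time gave 71 to 208, 16 to 117 and 67 to 235, lowest without control replicate 1 and highest without WD+F+CCl4 replicate 3. Between the models the 0 became 38 with no filter, 2 with DESeq2 and up to 6 without HFD+F+CCl4 replicate 3 (0 to 6).

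Against T cells the 742 became 1449 with no filter and 441 without cells holding macrophage or B cell UMIs, against NKT-like cells the 190 became 342 and 57, and for the difference of NASH differences the 58 became 133 with no filter, 21 with DESeq2 and 8 to 95 without 1 mouse. Without control replicate 1, Itgam (0.45) and Cx3cr1 (0.83) changed sign there, with -3.29 and -4.5 as their lowest values without 1 mouse. Without scaling beyond library size the median of all genes was -0.14 in WD+F+CCl4 against control and -0.11 between the models.

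The NK share of kept cells, NASH against control, differed by -1.39 percentage points. It was -0.777 without cells holding a T cell UMI, -0.904 with a gate of 3 UMIs, -4.4 with a gate of 1 UMI, -2.09 over 1000 genes, -5.09 thinned to 800 UMIs and -3.25 with the other limits on all UMIs (chosen after seeing the data), reversed to 1.61 of lymphocytes, and ran from -2.39 to -0.383 without 1 mouse. Of lymphocytes it ran from -0.141 (without HFD+F+CCl4 replicate 1) to 2.51 without 1 mouse, a range added after seeing the data. The ILC1-leaning difference of 20.4 was 19.8 with a margin of 2 UMIs (p = 0.0357, exact permutation test) and ran from 12.1 to 28.7 without 1 mouse. With each cell thinned to 800 UMIs it was 4.9 (p = 0.357, exact permutation test), with 3 NASH mice above both control mice. It was 16.7 among cells of over 1000 genes and 19.6 without cells holding a T cell UMI (both p = 0.179, exact permutation test). Among leaning cells only it was 23.6 (p = 0.143, exact permutation test). The causes were not tested. With 2 control mice, and 43 NK cells in 1 of them, genes of few UMIs did not reach the tests.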
